A study of Homo sapiens with 4 samples.

Results

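Small nucleolar RNA host genes are long noncoding RNA (lncRNA) genes whose introns carry small nucleolar RNAs (snoRNAs). The members described here were all GENCODE genes named SNHG plus a number, together with GAS5, and 29 of the 62663 annotated genes on the primary chromosomes met this rule, all of them annotated as lncRNA. Their spans ran from 540 bp in SNHG25 to 441754 bp in SNHG14, with a median of 6851 bp. Together they held 149 snoRNA loci, of which 84 lay in SNHG14, and every host held at least 1.

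The study asked how RRN3, a protein that lets RNA polymerase I begin transcription, bears on RNA polymerase II (Pol II) transcription, and used chromatin immunoprecipitation with a Pol II antibody followed by sequencing (ChIP-seq). All cells were SK-OV-3, an established human ovarian cancer line, and carried a short hairpin RNA directed either at RRN3 (shRRN3) or, as the control, at the bacterial gene LacZ (shLacZ). Of the 4 samples, 1 Pol II library per hairpin is described by a list of peaks, and the 2 input libraries (chromatin without the antibody step) were not analysed here. No further treatment, time point or clone is named in the labels, and a list from 1 hairpin with 1 library cannot separate the hairpin from the library.

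With 1 library per hairpin there were no replicates, so no difference between the lists could be set against a replicate error, and no p-value is given. Intervals are exact Clopper-Pearson 95% intervals over genes or peaks. They cover counting error only, and they treat neighbouring genes and peaks as independent, which these are not. The shLacZ list held 3920 peaks on the primary chromosomes and the shRRN3 list 14322. Their median peak widths were 306 bp and 432 bp. The lists hold no read counts, so depth cannot be read from them and a larger count in the longer list cannot be told apart from the length of the list. Counts were therefore also taken with shRRN3 reduced to its 3920 highest-scoring peaks. The score of a peak is the one given by the peak caller and depends on depth, and it was used only to rank peaks within a list. RRN3 itself had 0 peaks on its span in either list, and a hairpin acts on the RNA, so these lists hold no check of the knockdown. Of 8 epithelial and ovarian markers, 1 had a peak at its start in shLacZ (PAX8, score 147.99) and 4 in shRRN3 (KRT8 and KRT18, which shared 1 peak, EPCAM and PAX8). ERBB2, WT1 and MUC16 had none at any annotated transcript start in either list. Markers of blood, endothelium, liver and smooth muscle had 0 of 5 in both.

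As background, snoRNAs guide the chemical modification of ribosomal and spliceosomal RNA. Box C/D snoRNAs carry a C box and a D box near their ends and direct methylation of the ribose, and box H/ACA snoRNAs direct the conversion of uridine to pseudouridine. In vertebrates most of them are not transcribed alone: Pol II transcribes the host gene, the introns are spliced out, and the snoRNA is trimmed from the intron. Many host transcripts, GAS5 among them, begin with a C followed by a run of pyrimidines, the terminal oligopyrimidine (TOP) form that is shared with ribosomal protein messages.

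The sequences at the start of the hosts are shown first because the peaks are described relative to these starts. Each window holds 25 bases before and 30 bases from the most-used annotated start onward, read on the strand of the host from GRCh38. This is the start shared by the most GENCODE transcripts of the gene, often a minority of them, such as 25 of 80 in SNHG1. Ties went to the canonical transcript, then to the start nearest the outer bound of the gene. Only 1 transcript begins there in some hosts, among them SNHG3, SNHG9, SNHG19 and SNHG25, so no start is the most used in these. In SNHG14 (7 of 142 transcripts) the base taken lies 63391 bp inside the bound and is the first base of SNORD109A. Capitals mark the run of pyrimidines that begins at the start base. The first 4 are the hosts whose most-used start had the TOP form (C and at least 4 further pyrimidines) and lay in a peak of both lists.
GAS5: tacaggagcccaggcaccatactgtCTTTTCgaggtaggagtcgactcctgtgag
SNHG12: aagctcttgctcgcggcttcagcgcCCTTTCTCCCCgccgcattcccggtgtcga
SNHG29: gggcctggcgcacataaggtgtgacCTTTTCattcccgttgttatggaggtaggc
SNHG8: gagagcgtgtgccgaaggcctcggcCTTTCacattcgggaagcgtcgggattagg
The next 4 starts lay in a peak of both lists without that form, with 3 pyrimidines in SNHG1, 4 in SNHG7 and none in SNHG3 and SNHG5.
SNHG1: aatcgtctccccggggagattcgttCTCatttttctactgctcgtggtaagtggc
SNHG7: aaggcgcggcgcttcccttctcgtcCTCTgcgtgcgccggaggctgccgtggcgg
SNHG3: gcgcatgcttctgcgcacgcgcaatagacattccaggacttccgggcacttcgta
SNHG5: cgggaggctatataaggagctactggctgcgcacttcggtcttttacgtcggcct
SNHG26 had the TOP form and lay in a peak of shRRN3 alone, as did SNHG6, whose sequence is not shown.
SNHG26: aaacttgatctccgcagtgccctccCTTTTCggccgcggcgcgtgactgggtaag
SNHG10 and SNHG15 lay in a peak of neither list.
SNHG10: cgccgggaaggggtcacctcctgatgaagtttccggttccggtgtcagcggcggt
SNHG15: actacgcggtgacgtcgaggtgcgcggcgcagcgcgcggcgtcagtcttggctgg

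By window of sequence, the GAS5 start lies at chr1:173867960-173868014 (minus strand), SNHG12 at chr1:28581844-28581898 (minus), SNHG29 at chr17:16439012-16439066 (plus) and SNHG8 at chr4:118278733-118278787 (plus). The most-used start had the TOP form in 4 of the 11 hosts with that base in a peak of both lists, in 2 of the 7 with it in shRRN3 alone and in 0 of the 11 with it in neither. Over any annotated transcript, the counts were 8 of 11, 5 of 7 and 3 of 11. Hosts have many annotated transcripts (median 14, against 1 in other lncRNA genes and 6 in protein-coding genes), which gives each host more starts to match. With that in view, 16 of the 29 hosts (55.2%) had at least 1 transcript of this form, beside 5.84% of other lncRNA genes and 16.3% of protein-coding genes.

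Pol II was found at the start of a larger share of hosts than of other genes in both lists. A gene was counted when the midpoint of a peak lay within 1 kb of the outer bound of its span. In shLacZ 9 of the 29 hosts had such a peak, or 31.0% (interval 15.3% to 50.8%). In the same list 2.83% of 18837 other lncRNA genes, 7.56% of 20033 protein-coding genes and 17.8% of 337 other genes holding a snoRNA had one. In shRRN3 14 hosts had such a peak, or 48.3% (interval 29.4% to 67.5%), beside 8.73% of other lncRNA genes, 23.7% of protein-coding genes and 37.7% of the other snoRNA-holding genes. With shRRN3 reduced to 3920 peaks the host count by this midpoint rule was 9, the same number as in shLacZ. The equality depends on the rule. When any overlap with the window counted, 10 hosts had a start peak in shLacZ and in the reduced list, and 4 more in the reduced list alone. The intervals of the hosts and of the other lncRNA genes did not overlap in either list. Those of the hosts and of the other snoRNA-holding genes (13.9% to 22.3% in shLacZ and 32.5% to 43.1% in shRRN3) overlapped in both.

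**Figure D1:**
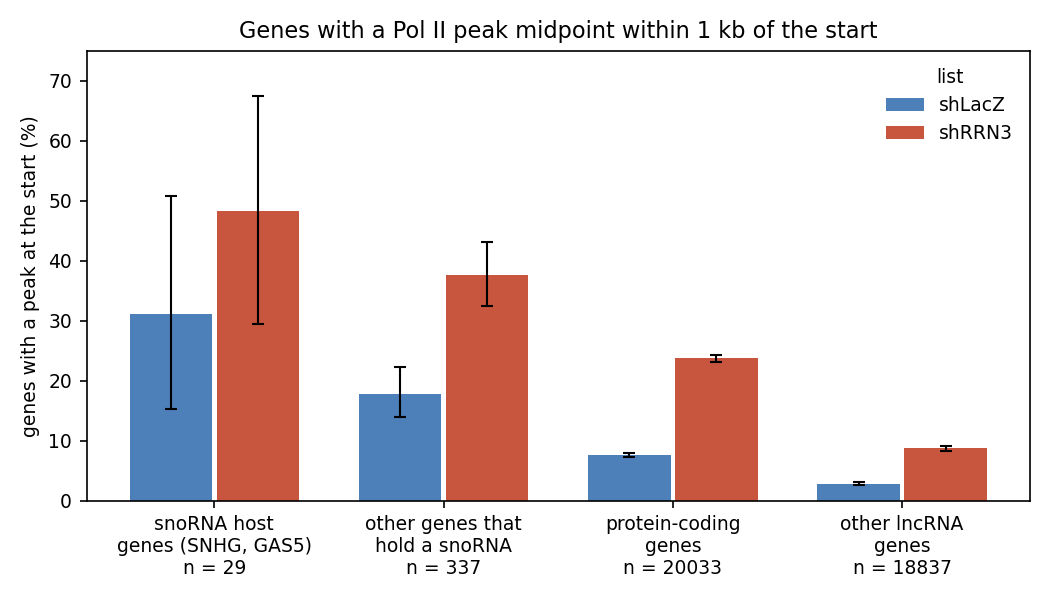
The bars give the share of genes (%, linear axis from 0) with a Pol II peak midpoint within 1 kb of the outer bound of the gene, for 4 groups of genes and both lists, and the lines are exact 95% intervals over genes. The host bars stand at 31.0% in shLacZ and 48.3% in shRRN3, above the other lncRNA genes at 2.83% and 8.73%, while the host intervals overlap those of the other snoRNA-holding genes. With shRRN3 reduced to 3920 peaks its host count by the midpoint was 9 of 29, as in shLacZ. By any overlap with the window, 10 hosts were shared and 4 were in the reduced shRRN3 list alone.

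The outer bound is set by the longest transcript model, so the most-used start was also examined, a choice made after the values were seen. That base lay inside a shLacZ peak in 11 hosts, or 37.9% (interval 20.7% to 57.7%), beside 1.61% of other lncRNA genes, 6.44% of protein-coding genes and 17.2% of the other snoRNA-holding genes. It lay inside a shRRN3 peak in 18 hosts, or 62.1% (interval 42.3% to 79.3%), beside 6.26%, 21.4% and 35.3% in the same order. For this base the interval of the other snoRNA-holding genes was 13.3% to 21.7% in shLacZ, which overlapped that of the hosts, and 30.2% to 40.7% in shRRN3, which did not. All 11 hosts of the shLacZ list were among the 18 of shRRN3. They were SNHG1, GAS5, SNHG3, SNHG5, SNHG7, SNHG8, SNHG9, SNHG12, SNHG19, SNHG25 and SNHG29. The 7 with the start base in a shRRN3 peak alone were SNHG6, SNHG11, SNHG16, SNHG17, SNHG20, SNHG21 and SNHG26. With shRRN3 reduced to 3920 peaks, the same 11 stayed in both lists and only SNHG6 and SNHG16 remained in shRRN3 alone. The other 5 thus rested on shRRN3 peaks that ranked below its top 3920.

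By the midpoint rule the start peak was shared by the lists in 7 hosts, was in the control list alone in 2 (SNHG1 and SNHG3) and was in shRRN3 alone in 7. The former pair came from peak width: the shRRN3 peaks over the starts of SNHG1 and SNHG3 were so broad that their midpoints lay 2144 bp and 1023 bp past the bound. When any overlap with the window counted, 10 hosts shared a start peak, 8 had one in shRRN3 alone and 0 had one in shLacZ alone.

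SNHG1 was the host most fully covered by Pol II peaks among those over 1 kb long. The gene (ENSG00000255717.9, chr11:62851978-62855953, minus strand, 3976 bp) carries 9 annotated snoRNA loci, all box C/D. Its start lies 51 bp from that of SLC3A2, the heavy chain of an amino acid transporter, which is read in the opposite direction, so Pol II at this start cannot be told apart between the genes. In shLacZ the region held 7 peaks. The highest lay over the start at chr11:62855033-62856372 (1340 bp, score 342.68, rank 94 of 3920), and 4 more lay in the body with scores of 57.08 to 144.86. The last 2 lay past the end with scores of 73.63 and 51.09. Peaks covered 77.3% of the gene. In shRRN3 1 peak at chr11:62850903-62856716 ran over the whole gene and overlapped 6 of the shLacZ peaks. It was 5814 bp wide with a score of 1025.86, which placed it 31st by score and 7th by width of 14322 peaks. A second shRRN3 peak, of 632 bp and score 81.3, lay past the end beside the farthest shLacZ peak. Coverage of the gene was 100% in shRRN3.

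SNHG3 also carried peaks from the start past the annotated end in both lists. The gene (ENSG00000242125.3, chr1:28505980-28510892, plus strand, 4913 bp) holds the box H/ACA snoRNAs SNORA73A and SNORA73B. RCC1, which encodes the exchange factor of the nuclear GTPase RAN, starts 37 bp upstream on the same strand and its span includes SNHG3, so these peaks cannot be assigned to either gene. In shLacZ 6 peaks covered 61.1% of the gene. The highest-scoring ones lay at the end, chr1:28510107-28511294 (1188 bp, score 382.31, rank 79), and at the start, chr1:28505527-28506746 (1220 bp, score 379.77, rank 80). In shRRN3 a peak of 2872 bp at the start scored 878.72 and a peak of 3154 bp over the end scored 1214.38, the latter ranking 21st in its list. Together they covered 97.7% of the gene, and another peak of 558 bp and score 122.56 lay past the end. In both lists the peak over the end scored above the peak over the start.

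GAS5, the growth arrest specific transcript, carries 11 snoRNAs within 3843 bp of its most-used start, all of box C/D except SNORA103. The gene (ENSG00000234741.10, chr1:173858559-173868882, minus strand, 10324 bp) has 50 of 91 annotated transcripts beginning 893 bp inside the outer bound, and 42 ending 4088 bp further on. The protein-coding gene ZBTB37 starts in the opposite direction 800 bp inside the bound, that is, beside this start. In shLacZ the start peak at chr1:173867387-173868158 was 772 bp wide and scored 260.81. The other 4 peaks, with scores of 51.42 to 166.16, all lay past the last snoRNA, between 4547 bp and 7109 bp from the start by midpoint. In shRRN3 the start peak was 1698 bp wide with a score of 390.91, and a separate peak of 676 bp and score 84.4 lay upstream of it. Of the 5 peaks after the start, 4 had midpoints past the last snoRNA, and the highest of these, at chr1:173861954-173863526, was 1573 bp wide and scored 427.92. It overlapped 3 shLacZ peaks. Coverage of the span was 25.2% in shLacZ and 53.0% in shRRN3. Of the 11 snoRNAs 1 lay in a shLacZ peak and 4 in a shRRN3 peak, and the later peaks lay around and past the most-used end.

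SNHG5, a host of 28442 bp on chromosome 6 with SNORD50A and SNORD50B, had a similar layout. In shLacZ its start peak (875 bp) scored 235.38, and 5 narrow peaks of 228 bp to 348 bp lay between 2416 bp and 5531 bp from the most-used start, with scores up to 113.24. The most frequent annotated end (8 of 89 transcripts) lies 1666 bp from that start, so these 5 peaks lay past it, though inside the gene span. In shRRN3 the start peak (1221 bp) scored 604.34 and 1 body peak of 1939 bp at chr6:85674312-85676250, with a score of 600.61, overlapped 4 of the narrow peaks. These peaks ranked 89th and 91st of 14322. A further shRRN3 peak of 606 bp (score 126.07) covered SNORD50B. Coverage was 6.90% and 17.4%.

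SNHG12, which holds 4 snoRNAs, had its most-used start 1259 bp inside the bound and in a peak of both lists, with scores of 140.7 (578 bp) in shLacZ and 215.74 (1179 bp) in shRRN3. Past its end shLacZ had 1 peak with a score of 61.04. shRRN3 had 2 there, and the higher of these (917 bp, score 275.43) exceeded its own start peak. SNHG6, a host of a single snoRNA, differed in the start: its most-used start lay in a shRRN3 peak (1261 bp, score 223.41) and in no shLacZ peak. Near its end shLacZ had 1 body peak (score 88.72), and shRRN3 had 4 peaks past the end by midpoint, with scores of 57.23 to 227.76. The highest of the 4 held the end base and overlapped the shLacZ body peak. Another shRRN3 peak, of score 90.01, lay beside it in the body. SNHG8, which hosts SNORA24, had 1 shLacZ peak, at the start (413 bp, score 108.94). In shRRN3 it had a start peak of 892 bp and score 309.92 and 4 body peaks with scores of 153.24 to 329.52, so coverage stood at 5.23% and 56.2%. This was the widest gap in coverage among the 29 hosts. The most frequent annotated end of SNHG8 (10 of 15 transcripts) lies 1065 bp from its most-used start. The 4 body peaks in shRRN3 had midpoints 1050 bp to 4270 bp from that start, so most of them lay past that end. The protein-coding gene PRSS12 also overlaps the span of SNHG8.

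**Figure D2:**
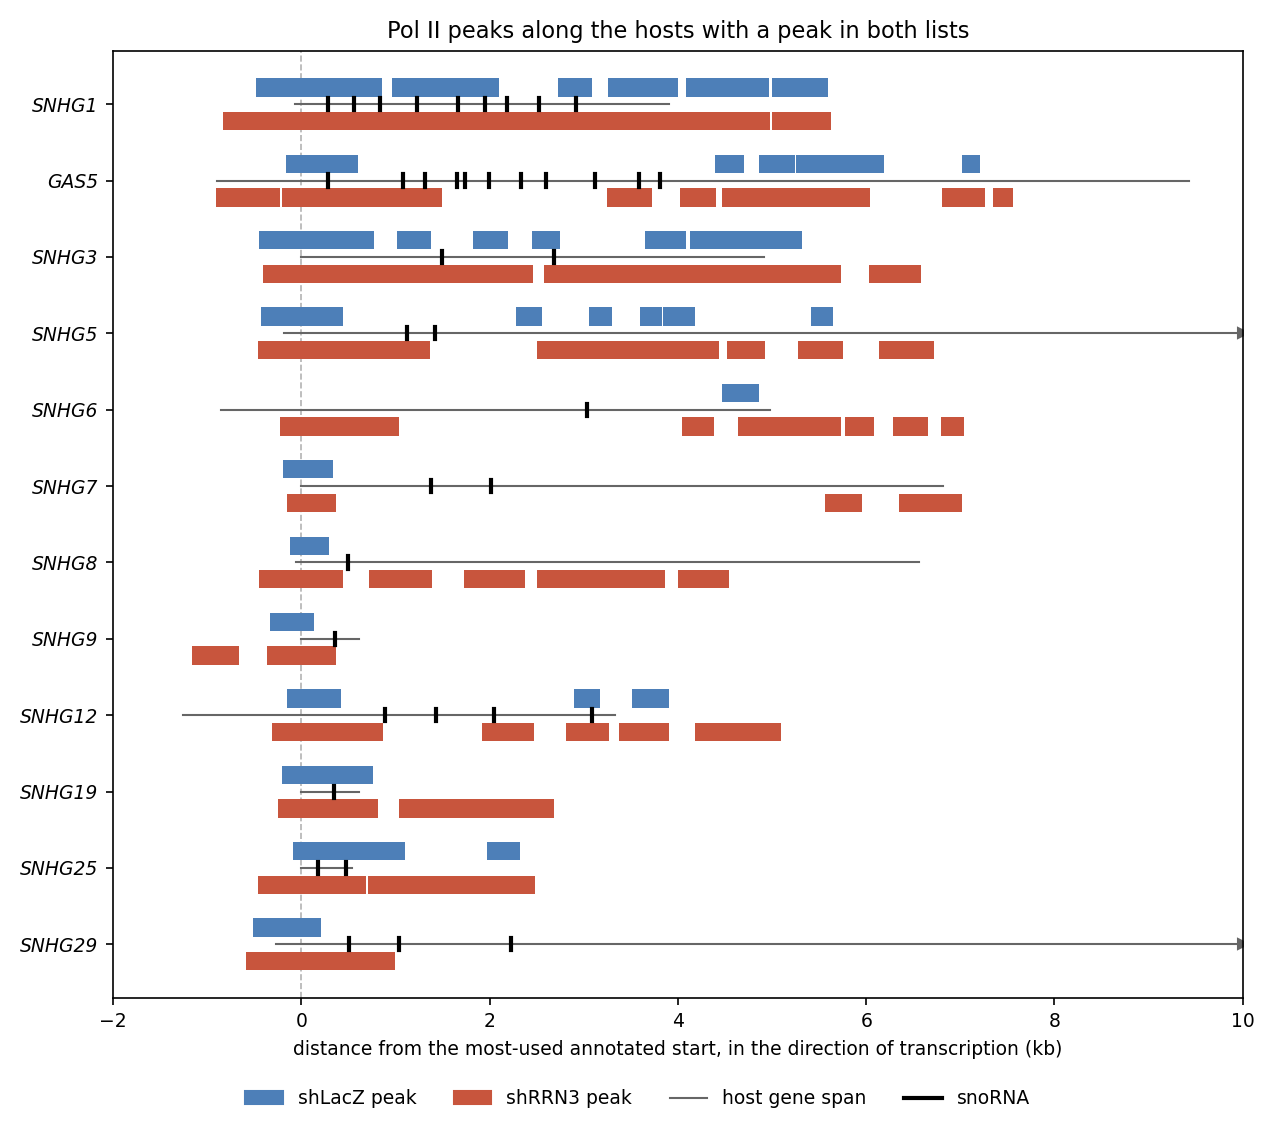
Each line is 1 of the 12 hosts with a peak at the start, in the body or past the end in both lists, drawn in the direction of transcription with its most-used annotated start at 0 kb (linear axis, kb), blue bars for shLacZ peaks, red bars for shRRN3 peaks and black ticks for snoRNAs. In shRRN3 SNHG1 and SNHG3 are covered almost end to end (100% and 97.7%), where shLacZ has separate peaks (77.3% and 61.1%), and GAS5 and SNHG5 show a start peak and a further group of peaks past the last snoRNA.

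Of the 3 hosts shorter than 1 kb, SNHG19 and SNHG25 were covered from end to end in both lists and SNHG9 in part. SNHG19 (614 bp) was covered at 100% in both lists by a peak of 972 bp and score 297.22 in shLacZ and of 1057 bp and score 397.65 in shRRN3. Its start lies 293 bp from that of TRAF7, a ubiquitin ligase gene read in the opposite direction. SNHG25 (540 bp) was covered at 100% by a peak of 1191 bp and score 198.35 in shLacZ. That peak ran past the end, and a second shLacZ peak of 360 bp and score 58.68 lay further past it. In shRRN3 SNHG25 carried a peak of 1153 bp and score 569.88, followed past the end by one of 1771 bp and score 481.09. SNHG9 (615 bp) lies 54 bp from the start of RPS2, a ribosomal protein gene read in the opposite direction, and was covered at 22.3% and 60.2%, with start peaks of score 101.7 and 192.4.

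SNHG7 and SNHG29 completed the hosts with a start peak in both lists. The start peak of SNHG7 was about as wide in both (535 bp and 520 bp) and scored 111.4 and 160.63, and shRRN3 added 2 peaks near the end of the gene, the higher with a score of 123.33. The start peak of SNHG29 measured 724 bp with a score of 238.4 in shLacZ and 1581 bp with a score of 461.82 in shRRN3, and no other peak lay on this host of 41483 bp.

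The hosts with peaks in shRRN3 alone differed in score. SNHG17 had a start peak of score 54.72, SNHG11 of 57.87, SNHG26 of 59.07 and SNHG21 of 73.9, all below the median score of the shRRN3 list (74.76). SNHG16 (758 bp, score 105.81) and SNHG28 (603 bp, score 151.1) lay above it. The SNHG28 peak did not include its most-used start. SNHG20 had a peak of score 70.67 over its most-used start, 2033 bp inside the bound, which is also the annotated start of the protein-coding gene SEC14L1, and another of score 67.32 at its end. SNHG30 had a single peak, of 764 bp and score 214.76, past its end.

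SNHG4, SNHG10, SNHG14, SNHG15, SNHG18, SNHG22, SNHG27, SNHG31 and SNHG32 had no peak in either list at the start, in the body or within 2 kb past the end. SNHG14 is the host of the imprinted snoRNA clusters of chromosome 15 (chr15:24978583-25420336, plus strand), and its 84 snoRNA loci all lay outside peaks. Several of these 9 share a start region with a protein-coding gene, such as SNHG22, 12 bp from ACAA2, and SNHG18, 95 bp from SEMA5A. A protein-coding start within 1 kb was therefore not always accompanied by a peak. Of the 10 hosts with such a neighbour, 5 had the midpoint of a shLacZ peak at the start and 4 that of a shRRN3 peak. Of the 19 without, 4 had one in shLacZ and 10 in shRRN3. The lower shRRN3 count beside a neighbour came from the midpoint rule. By any overlap with the window, SNHG1, GAS5, SNHG3, SNHG5, SNHG9 and SNHG19 had a start peak in both lists. The other hosts with such a neighbour had one in neither. The shRRN3 list is also the longer, so these counts are not compared between lists.

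Peaks in the body of hosts were more frequent than in other lncRNA genes. Over 1 kb inside the bound, 6 hosts had a peak midpoint in shLacZ, or 20.7% (interval 7.99% to 39.7%), beside 1.89% of other lncRNA genes. In shRRN3 10 had one, or 34.5% (interval 17.9% to 54.3%), beside 5.71%. Shares of protein-coding genes and of the other snoRNA-holding genes are not given for the body or past the end. At the start both groups lay nearer the hosts than the other lncRNA genes did. SNHG1, GAS5, SNHG3, SNHG5, SNHG6 and SNHG12 had body peaks in both lists, and SNHG7, SNHG8, SNHG20 and SNHG26 in shRRN3 alone. Outside the spans of protein-coding genes the counts were 3 and 6. Some of these are start peaks, since the most-used start of GAS5, SNHG6, SNHG12 and SNHG20 lies inside the bound. Others lie past the most frequent annotated end of the host, as in SNHG5 and SNHG8.

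Past the annotated end, within 2 kb, 3 hosts had a peak midpoint in shLacZ, or 10.3% (interval 2.19% to 27.4%), beside 0.552% of other lncRNA genes. In shRRN3 8 had one, or 27.6% (interval 12.7% to 47.2%), beside 1.99%. SNHG1, SNHG12 and SNHG25 had one in both lists, and SNHG3, SNHG6, SNHG19, SNHG20 and SNHG30 in shRRN3 alone. With shRRN3 reduced to 3920 peaks the count there was 5. Taking the end base itself, 4 hosts had it inside a peak of both lists (SNHG1, SNHG3, SNHG19 and SNHG25) and 3 in shRRN3 alone (SNHG6, SNHG7 and SNHG20). No share of other genes is given for the end base, so these counts only describe the hosts.

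The position after the last snoRNA, a landmark chosen after the map was seen, held most of the peaks that followed the start. In shLacZ 17 of the 24 peaks after the start had their midpoint past the last snoRNA, in 7 hosts. In shRRN3 29 of 35 had, in 13 hosts. In many hosts much of the length lies past the last snoRNA, so no comparison with other genes was made.

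With distance from the most-used start, the share of hosts in a peak was highest at the start and uneven downstream. At 1500 bp, 1 of the 29 hosts (3.45%) was in a shLacZ peak and 4 (13.8%) in a shRRN3 peak. The counts were 3 (10.3%) and 6 (20.7%) at 2 kb, again 3 and 6 at 5 kb, and 0 and 4 at 7000 bp. For protein-coding genes the shares at 2 kb were 0.135% and 0.938%, and for other lncRNA genes 0.133% and 0.733%. The host values downstream came from few genes, chiefly SNHG1, SNHG3, GAS5, SNHG5 and, in shRRN3, SNHG6 and SNHG8.

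**Figure D3:**
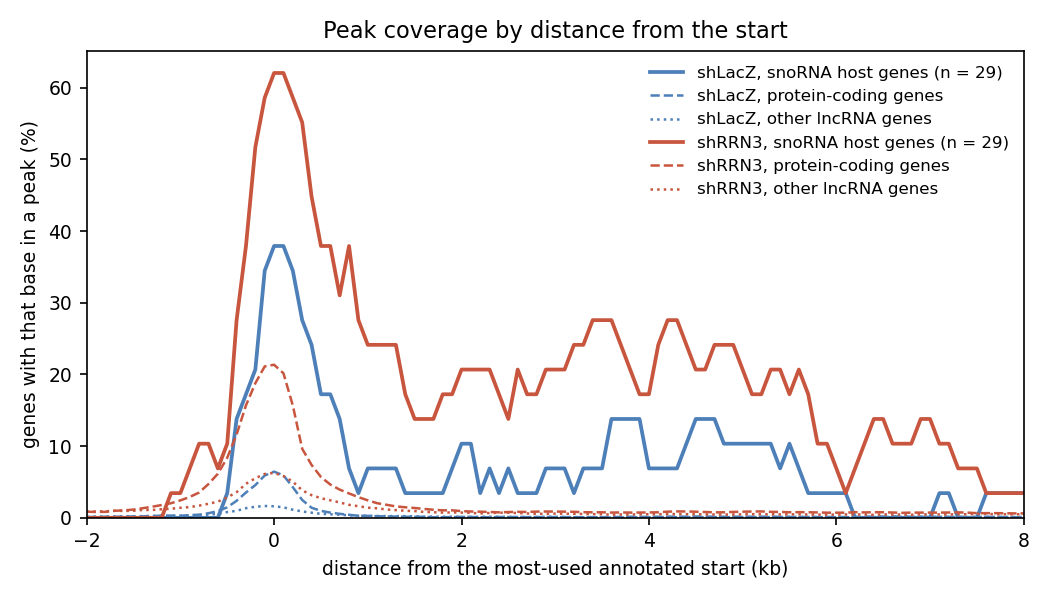
The lines give the share of genes (%) whose base at each distance from the most-used annotated start (kb, direction of transcription) lies in a peak, for the 29 hosts (solid), protein-coding genes (dashed) and other lncRNA genes (dotted), in blue for shLacZ and red for shRRN3. The host lines peak at 37.9% and 62.1% at the start. Downstream they are uneven, at 3.45% and 13.8% at 1500 bp and at 10.3% and 20.7% at 2 kb, and the shLacZ line is at 0 at 7000 bp.

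The snoRNAs themselves were next set against the peaks, with 1 bp as the least overlap. In shLacZ 13 of the 149 host snoRNA loci overlapped a peak, or 8.72% (interval 4.73% to 14.5%), beside 0.945% of the 1270 snoRNA loci outside these hosts. In shRRN3 25 did, or 16.8% (interval 11.2% to 23.8%), beside 2.13%. All 13 were among the 25. Leaving out SNHG14, 65 loci remained, of which 40 overlapped a peak of neither list. Of 36 box C/D loci outside SNHG14, 11 were in a peak of both lists and 7 in shRRN3 alone. Of 23 box H/ACA loci, 2 were in both and 5 in shRRN3 alone. None of the 4 Cajal body RNAs was in a peak. The loci of 1 host share its peaks and are not independent: 7 of the 13 lay in SNHG1.

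Sequences are shown for box C/D snoRNAs in a peak of both lists. The box H/ACA loci SNORA73B and SNORA50C were also in a peak of both and are not shown. In GAS5 the box C/D locus was SNORD74, in SNHG12 SNORD99, in SNHG19 SNORD60 and in SNHG25 SNORD104. They are read 5′ to 3′ from GRCh38 on the host strand. Capitals mark TGATGA within the first 15 bases (the C box) and CTGA within the last 15 (the D box).
SNORD74: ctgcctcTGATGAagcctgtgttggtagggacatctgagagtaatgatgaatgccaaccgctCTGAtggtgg
SNORD99: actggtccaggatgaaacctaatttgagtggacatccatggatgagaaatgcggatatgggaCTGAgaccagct
SNORD60: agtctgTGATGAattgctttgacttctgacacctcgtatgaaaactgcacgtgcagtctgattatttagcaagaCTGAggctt
SNORD104: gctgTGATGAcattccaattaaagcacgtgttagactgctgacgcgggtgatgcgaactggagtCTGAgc
In SNHG1 these were 7 loci, of which SNORD25, SNORD27 and SNORD29 held both boxes as searched, and SNORD26 and SNORD28 held the D box alone.
SNORD25: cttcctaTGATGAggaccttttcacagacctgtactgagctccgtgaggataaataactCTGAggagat
SNORD26: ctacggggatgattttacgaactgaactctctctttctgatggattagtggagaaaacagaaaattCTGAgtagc
SNORD27: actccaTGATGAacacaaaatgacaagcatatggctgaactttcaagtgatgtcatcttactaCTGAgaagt
SNORD28: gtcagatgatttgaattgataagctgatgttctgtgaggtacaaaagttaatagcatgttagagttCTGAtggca
SNORD29: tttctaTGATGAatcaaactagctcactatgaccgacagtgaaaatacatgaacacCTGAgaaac
The other two SNHG1 loci are both annotated as SNORD22.

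Their positions were chr1:173867674-173867745 for SNORD74, chr1:28578749-28578822 for SNORD99, chr16:2155023-2155105 for SNORD60 and chr17:64146083-64146152 for SNORD104. Of these 11 loci, 6 held the C box letters and all 11 the D box letters. Over the 36 box C/D loci outside SNHG14 the counts were 23 and 36, and over the 84 of SNHG14 they were 75 and 80, so the boxes did not mark the loci in peaks. The 27 box H/ACA and Cajal body loci held TGATGA in 0 and CTGA in 1. Within SNHG1 SNORD30 and SNORD31 fell between the shLacZ peaks and inside the single shRRN3 peak. In GAS5 SNORD75, SNORD76 and SNORD47 were covered in shRRN3 alone. Both snoRNAs of SNHG25 (SNORD104 and the box H/ACA SNORA50C) were fully covered in both lists. In SNHG3 SNORA73B was covered at 80.9% in shLacZ and SNORA73A at 0%, and both at 100% in shRRN3.

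Peaks covered 14344 bases of the hosts in shLacZ, or 1.37% of their length, and 34663 bases in shRRN3, or 3.31%. In other lncRNA genes the shares were 0.0633% and 0.284%. The ratio of covered bases, shRRN3 to shLacZ, was 2.42 in the hosts, 4.49 in other lncRNA genes and 4.80 over all primary chromosomes. With shRRN3 reduced to 3920 peaks these ratios were 1.92, 2.13 and 2.03. Among the 11 hosts with the most-used start in a peak of both lists, the median covered share was 22.3% (1.16% to 100%) in shLacZ and 56.2% (3.05% to 100%) in shRRN3. It was larger in shRRN3 in 9 of them and 100% in both lists in SNHG19 and SNHG25.

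**Figure D4:**
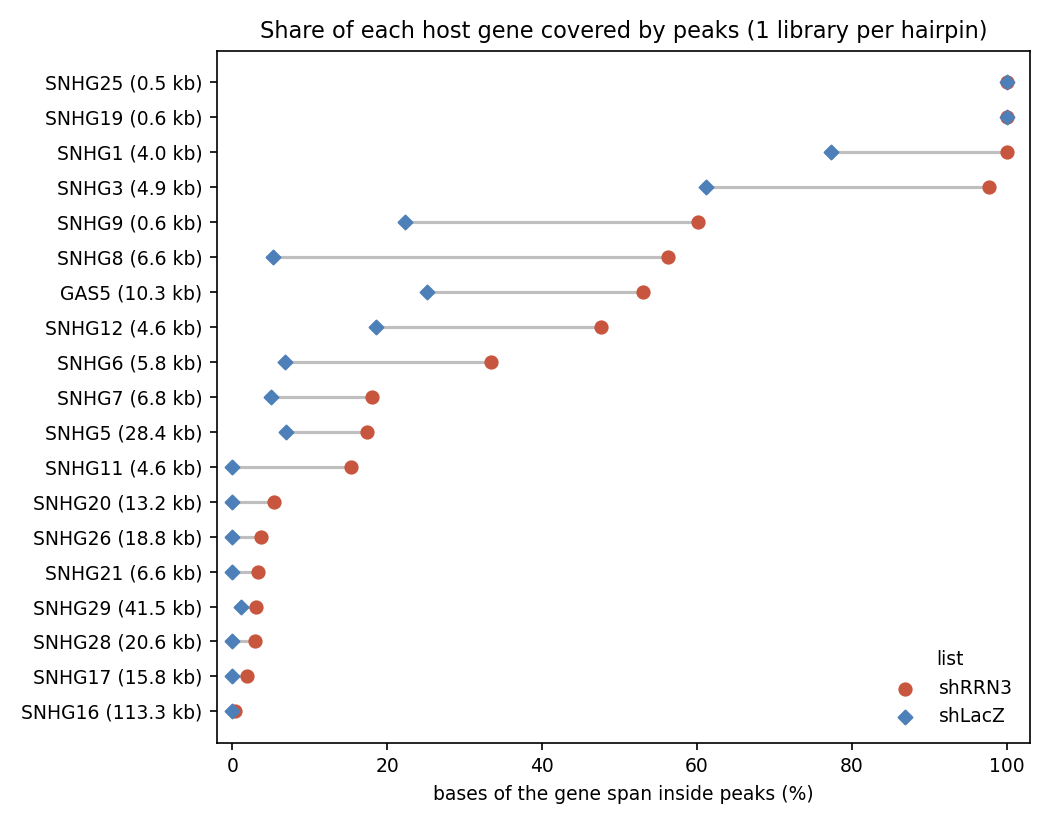
Each row is a host with a peak on its span, with its length in parentheses, and the points give the share of its bases inside peaks (%, linear axis from 0) in shLacZ (blue diamonds) and shRRN3 (red circles), 1 library per hairpin. No host lies lower in shRRN3, the largest gap is that of SNHG8 (5.23% and 56.2%), and SNHG19 and SNHG25 are at 100% in both.

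The peaks on hosts were wide and high in their lists. In shLacZ 31 peaks touched a host, with a median width of 422 bp beside 305 bp for all other peaks and a median score percentile of 82.4. In shRRN3 44 did, with 654 bp beside 432 bp and a median score percentile of 84.2. All 31 host peaks of shLacZ met a shRRN3 peak (100%, interval 88.8% to 100%), beside 65.9% of all other shLacZ peaks and 92.3% (interval 90.0% to 94.2%) of the others that scored at or above the host median of 105.42. Of the 44 host peaks of shRRN3, 19 met a shLacZ peak (43.2%, interval 28.3% to 59.0%), beside 16.9% of the others and 49.4% of the others at or above the host median of 134.83. Against other peaks of at least that score the intervals overlapped in both lists. Of the 44 shRRN3 host peaks, 3 (6.82%) overlapped 4 or more shLacZ peaks, in SNHG1, SNHG3 and SNHG5. Of the other peaks 10 of 14278 did, and 10 of the 2232 at or above the host median score (0.448%). The gap depended on the cutoff. At 2 or more the shares were 11.4% of the host peaks, with GAS5 then among the hosts, and 6.54% of those 2232.

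The proteins that bind snoRNAs were examined as the other genes of the pathway. A list of 19 genes held the core proteins of box C/D and box H/ACA particles, their assembly factors and Cajal body or chaperone proteins. In shLacZ 3 of the 19 had a start peak and in shRRN3 10, beside the 7.56% and 23.7% of protein-coding genes given above. NOP56 and NOP58, core proteins of the box C/D particle, had one in both lists, with scores of 154.12 and 125.96 in shLacZ and of 249.6 and 215.85 in shRRN3. NOP10, of the box H/ACA core, had one with scores of 65.88 and 67.0. NAF1, an assembly factor of H/ACA particles, had a start peak of score 161.19, NOLC1, a snoRNP chaperone, of 114.09 and ZNHIT6, an assembly factor of C/D particles, of 100.01, each in shRRN3 alone. FBL, the methyltransferase of the C/D particle, and DKC1, the pseudouridine synthase of the H/ACA particle, had none in either list.

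Short motifs were counted on both strands from 250 bases before to 50 bases after the most-used start of each host, beside all 35116 RefSeq promoter windows of the same length. GGGCGG, the core of a GC box, was present in 22 of 29 hosts (75.9%), beside 45.0% of all promoters. CACGTG, an E-box, was present in 7 (24.1%), beside 7.26%. CCAAT was present in 9 (31.0%), beside 34.6%, and AAGATGG in 1 (3.45%), beside 5.84%. TATAAA was present in 5 (17.2%), beside 11.5%: SNHG1, SNHG7, SNHG9, SNHG19 and SNHG11. The first 4 of these had the start in a peak of both lists, and none of the 11 hosts with the start in no peak held TATAAA. For the other motifs the counts in these groups of 11 lay closer. They were 9 and 8 for GGGCGG, 4 and 2 for CACGTG, 5 and 4 for CCAAT, and 0 and 0 for AAGATGG. No split was tested. These are matches of letters in a window and not binding sites.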

How the data were processed

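Pol II ChIP-seq was done by the study with the ChIP-IT Express kit, and the authors deposited 1 peak list per Pol II library, in hg38 per the labels. Each list holds coordinates, a peak name that carries the name of the program MACS, and a score. The score deposited by the authors was taken to be a scaled −log10 p, from its lowest values (50.03 in shLacZ and 50 in shRRN3) and a common ceiling of 3100, and this scale is an assumption. The aligner, the threshold, the handling of duplicate reads and the use of the input are not given in the sources used here. The lists hold no read counts, depth from other sources was not used, and the score was used only to rank peaks within a list.

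Genes and starts came from GENCODE release 44 (GRCh38). GENCODE snoRNA loci were joined by RefSeq loci (GRCh38.p14 table) that overlapped none of them, which added 14 in the hosts, all 11 of GAS5 among them. Their strand was taken as that of the host. A start peak had its midpoint within 1 kb of the outer bound, a body peak further inside, and an end peak within 2 kb past the end. The members and gene lists were chosen with earlier results of these data known. Every member was accounted for, hosts with peaks were named with their highest-scoring ones, and snoRNAs were named when a peak covered at least 50% of them. The most-used start (the most frequent one among the transcripts of a gene, with ties broken as given above), the RefSeq addition and the motif letters were chosen after the data were seen. Alternatives were other windows, overlap rules and starts, a stricter score and the shRRN3 list reduced to 3920 peaks. The window code was tested on simulated peaks, where 200 of 200 planted start peaks were recovered among 1000 genes. Their midpoints were placed inside the window, so this checks the code and not the midpoint rule. Software versions were bedtools 2.31.1, scipy 1.17.1, pandas 2.3.3, numpy 2.4.6, matplotlib 3.10.9 and Python 3.11.15.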

Additional observations from a re-analysis of the deposited data

How the results depend on the processing

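Of 62 values computed under alternatives for 10 results, 45 stayed close to the reported value and 17 moved further. Close meant within 1.5 times a reported count, or within the interval of a reported share. Counts and covered shares have no direction, so a reversal could not occur. The interval of the covered share is not given here and was narrow. In shLacZ 1.16% at the stricter score counted as moved beside the reported 1.37%. Shares were thus judged by a narrower rule than counts. The count of hosts with a start peak in shLacZ was 4 of the 19 hosts with no protein-coding start within 1 kb, and in shRRN3 it was 9 with the list reduced to 3920 peaks. Body peaks outside protein-coding genes were found in 3 hosts in shLacZ and 6 in shRRN3. Peaks past the end in shLacZ were found in 1 host within 500 bp, 5 within 5000 bp, 5 with any overlap and 1 with a score at or above the shLacZ median. In shRRN3 they were found in 3 hosts within 500 bp and 5 with the reduced list. The covered share in shLacZ was 2.37% without SNHG14, 4.49% over annotated exons and 1.16% at the stricter score. In shRRN3 it was 5.72%, 11.0% and 3.13% in the same order, and 2.63% with the reduced list. No paired analysis was possible because there was only 1 Pol II library for either hairpin, and for this reason no replicate could be left out.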
